A study of Mus musculus with 10 samples.

Results

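The 43 genes described here encode the proteins that license replication origins, activate the replicative helicase, build the fork, supply deoxynucleotides or switch on the S-phase programme. They were taken from a list of mouse symbols, by name and not by a threshold on their values. All 43 of 43 symbols matched 1 Ensembl identifier each among the 45318 identifiers of the deposited table, and all 43 passed the filter on low values that left 13171 genes for testing. The cells were bone marrow derived macrophages (BMDM), primary macrophages grown from the marrow of C57BL/6 mice, and their mRNA was sequenced with a stranded library kit. The 10 libraries form 5 groups of 2. KO Poly(I:C) cells were labelled Tlr4 -/- and had a pre-treatment with Poly(I:C), a synthetic RNA duplex used to mimic viral RNA. KO control cells carried the same genotype label and were collected after 6 h in a medium with 5% FBS (fetal bovine serum) and 2% BSA (bovine serum albumin). WT control cells were labelled WT and had the same medium for the same time. KO untreated and WT untreated cells had no pre-treatment. The labels give no Poly(I:C) dose or duration, no animal age, and no statement that the libraries of a group came from separate animals or cultures, so p-values reflect only how far these libraries lie apart, which may be technical. No library of Poly(I:C)-treated WT cells was analysed.

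Cells copy their genome once per cycle. In G1 the origin recognition complex, Cdc6 and Cdt1 load rings of Mcm2 to Mcm7 onto DNA, and at the start of S phase Cdc45 and the GINS complex turn these rings into an active helicase. Primase and DNA polymerases then copy both strands, held to DNA by the sliding clamp PCNA. Transcription of most of these genes is driven by E2F factors, which the retinoblastoma family keeps in check until cyclin-dependent kinases release them. Macrophages grown from marrow with colony-stimulating factor divide for some days in culture, and proliferation commonly stops when macrophages are activated.

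E2F factors bind short GC-rich words that open with a run of T. A set of 4 such words was searched on both strands (TTTCCCGC, TTTCGCGC, TTTGCCGC and TTTGGCGC), in windows from 250 bases before to 50 bases after each RefSeq start in GRCm38.p6. Promoters were found there for 35 of the 43 genes, 42 promoters in all. A word was present in 15 of the 42 promoters (35.7%), against 744 of all 32851 promoters (2.26%). Stretches around the words are shown for 6 genes that fell in WT control cells and for Cdt1 and Rfc3, the members with a word that did not fall there. Each reads 5′ to 3′ on the gene's own strand with the word, or its reverse complement, in capitals.
Cdc6: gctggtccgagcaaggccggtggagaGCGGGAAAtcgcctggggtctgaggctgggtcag
Mcm5: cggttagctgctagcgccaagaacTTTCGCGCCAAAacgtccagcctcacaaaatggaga
Mcm6: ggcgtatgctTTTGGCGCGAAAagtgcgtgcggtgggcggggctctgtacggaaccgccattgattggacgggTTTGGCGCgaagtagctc
Pole2: cgtcggcggtgGCGCCAAAtcgcgaacatg
E2f2: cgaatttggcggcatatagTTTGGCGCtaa
Uhrf1: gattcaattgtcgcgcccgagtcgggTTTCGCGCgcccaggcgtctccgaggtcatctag
Cdt1: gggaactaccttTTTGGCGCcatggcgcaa
Rfc3: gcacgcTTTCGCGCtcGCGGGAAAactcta
The stretches lie at chr11:98907987-98908046 on the plus strand for Cdc6, chr8:75109332-75109391 (plus) for Mcm5, chr1:128359735-128359825 (minus) for Mcm6 and chr12:69228162-69228191 (minus) for Pole2. Those of E2f2, Uhrf1, Cdt1 and Rfc3 lie at chr4:136172294-136172323 (plus), chr17:56304102-56304161 (plus), chr8:122568035-122568064 (plus) and chr5:151651195-151651224 (minus). Words overlap one another in Mcm5 and in the first block of Mcm6, the stretches of E2f2 and Cdt1 lie downstream of the annotated start, and those of Pole2 and Rfc3 span it. The pentamer CCAAT, also searched on both strands, was present in 25 of the 42 promoters (59.5%), against 37.4% of all promoters. A match describes letters, not binding.

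Deposited totals were 47.5 and 51.7 M units in KO Poly(I:C) libraries, 25.7 and 26.7 M in KO control, 42.0 and 41.1 M in WT control, and 25.2 to 26.0 M in the 4 untreated libraries. The units are whole numbers but not raw reads, so that they carry no counting interval. Levels below are CPM (units per 1 M after TMM scaling, which sets the bulk of genes equal between libraries). With totals alone as the scale, the split of all genes was 17.2% higher and 58.4% lower in WT control against WT untreated, 58.2% higher and 15.8% lower in KO control against WT control, and 15.8% higher and 67.4% lower in KO Poly(I:C) against KO control cells. It was 16.8% higher and 66.1% lower in KO Poly(I:C) against KO untreated, 5.8% higher and 32.2% lower in KO Poly(I:C) against WT control, and 49.5% above and 12.9% below 0 for the genotype by medium interaction. The 8 macrophage markers summed to 23839 to 28136 CPM in every library. Markers of most other cells a marrow culture could hold were low. Flt3 and Gata2 of the progenitor list were under 1 CPM, and Igll1, Cd3e, Cd3g and Cd209a were at 0. Neutrophil sums were higher, at 135 to 296 CPM, with Mmp8 alone at 119 to 200 CPM. B cell sums ran from 7.53 to 53.0 CPM, with Cd79b alone at 7.48 to 52.9 CPM. The summed lists reached at most 21.0 CPM for progenitors, 16.2 CPM for stromal cells, 1.50 CPM for T and NK cells, 0.852 CPM for dendritic cells and 0.562 CPM for erythroid cells in any library, and the sums that moved most are given beside the results. Tlr4, the targeted gene, stood at 30.8 and 34.6 CPM in KO control and 32.3 and 39.0 CPM in WT control libraries, with no call (log2 difference -0.12, limma adjusted p = 0.488), and at 44.4 and 44.9 CPM in KO untreated and 60.1 and 69.1 CPM in WT untreated libraries (-0.53, adjusted p = 0.346). Its total level therefore does not check the genotype labels, and KO and WT below are the labels as given. Within every group the replication genes ran higher in replicate 1, in 40 of 43 genes for KO Poly(I:C), 42 for KO control, 38 for WT control, 42 for KO untreated and 43 for WT untreated, while 46.1% to 55.3% of all genes tested did so. The library WT untreated 1 stood apart most, with a summed level of the 43 genes of 2297 CPM against 1679 CPM in WT untreated 2, and results against WT untreated are given without each of these libraries. In bulk RNA, fewer cells in S phase and less of these mRNAs per cell cannot be told apart.

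The summed level of the 43 genes was 1106 ± 92.5 CPM in KO Poly(I:C), 1526 ± 113 in KO control, 951 ± 91.5 in WT control, 1711 ± 133 in KO untreated and 1988 ± 437 in WT untreated cells (SD, n = 2 each). KO Poly(I:C) and WT control thus formed the low pair, and KO control lay between them and the untreated groups. Pcna alone held 419 CPM of the sum in KO Poly(I:C) and 258 CPM in WT control cells. Gene by gene the order within this pair was mostly the reverse. KO Poly(I:C) minus WT control had a median log2 difference of -0.27 over the 43 genes, with 32 negative. Per kilobase of principal transcript, Pcna, the clamp, was the highest of the 43 in every group (276 ± 14.4 CPM per kb in KO Poly(I:C), 168 ± 5.08 in KO control, 170 ± 11.7 in WT control, 164 ± 2.42 in KO untreated and 193 ± 14.8 in WT untreated cells). Mcm6, a subunit of the helicase ring, ranked next in every group. Its level ran from 30.4 ± 4.03 CPM per kb in WT control to 44.5 ± 13.4 in WT untreated cells; in WT untreated cells the other 5 ring subunits ran from 16.1 ± 3.31 (Mcm4) to 31.0 ± 7.61 (Mcm3). Orc1, a subunit of the origin recognition complex, was lowest in both control and both untreated groups, and Pole2 in KO Poly(I:C) cells at 0.320 ± 0.156 CPM per kb. Cdt1 and Rfc3 held ranks 3 and 4 per kb in KO Poly(I:C) cells and ranks 3 and 6 in WT control cells. In KO control cells they ranked 19 and 21, in KO untreated cells 20 and 23, and in WT untreated cells 14 and 23.

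**Figure D1:**
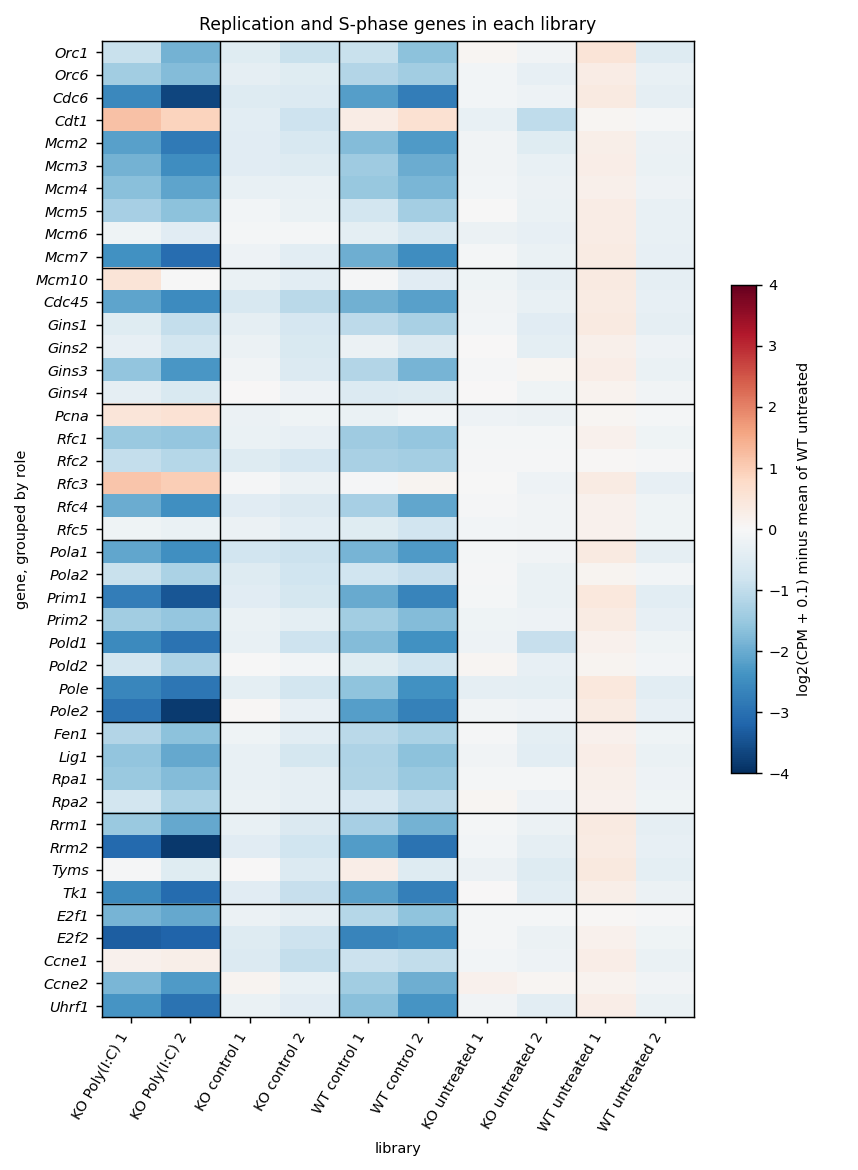
Colour gives log2(CPM + 0.1) of each of the 43 genes (rows, grouped by role) in each of the 10 libraries (columns), minus the mean of the 2 WT untreated libraries. Most rows are blue in KO Poly(I:C) and WT control libraries and pale in KO control and KO untreated libraries, with Cdt1, Rfc3 and Pcna red in KO Poly(I:C) on this TMM scale (with totals alone, KO Poly(I:C) minus KO untreated was 0.00 for Pcna).

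The first comparison was between WT control and WT untreated cells, which differ in the serum and albumin medium. In WT control cells 37 of the 43 genes fell against WT untreated cells, none rose, and 6 were not called (limma on all genes, Benjamini-Hochberg adjusted p under 0.05). Over all genes tested, 65.8% were called, 33.1% higher and 32.8% lower. The median log2 difference of the 43 genes was -1.44, against -0.005 for all genes. The libraries of the 2 groups did not overlap in 40 of the 43 genes, 39 of them lower in WT control, where the libraries of 82.1% of all genes tested lay apart and 41.3% were lower. Without WT untreated replicate 1 the count of lower calls was 34 and without replicate 2 it was 39. With totals alone as the scale the median was -1.97. The summed stromal markers were 12.9 to 16.2 CPM in WT control and 3.92 to 6.62 CPM in WT untreated libraries. Most of this came from Pdgfrb, with 8.67 and 10.2 CPM in WT control against 0.626 and 0.496 CPM in WT untreated libraries. Col1a2 overlapped, at 1.59 and 2.60 CPM in WT control and 1.44 and 2.85 CPM in WT untreated libraries. In the later comparisons that give it, the stromal sum likewise moved mainly with Pdgfrb. The summed B cell markers, of which 1 gene reached 1 CPM, were 10.5 and 11.5 CPM in WT control and 46.1 and 53.0 CPM in WT untreated libraries, and the neutrophil list 259 to 296 CPM in WT control and 219 to 222 CPM in WT untreated libraries. Within the neutrophil list Mmp8 had 176 and 186 CPM in WT control against 200 and 188 CPM in WT untreated libraries. S100a8 had 41.7 and 46.8 CPM in WT control against 5.11 and 10.1 CPM in WT untreated libraries, so the list did not move as 1. The part of other cells in the result was not tested.

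Among the origin licensing genes, 9 of 10 fell in WT control cells, with a median of -1.47. Cdc6 (ENSMUSG00000017499), the ATPase that loads the helicase rings, had 3.02 and 2.03 CPM in WT control libraries, against 18.3 and 11.3 CPM in WT untreated libraries. Both WT control values lay below both untreated ones, and the log2 difference was -2.49 (SE 0.34, adjusted p = 0.000104). The ring subunits Mcm7, Mcm2, Mcm3, Mcm4, Mcm5 and Mcm6 fell by 2.22, 2.00, 1.71, 1.66, 1.04 and 0.52 on the log2 scale, and the origin recognition subunits Orc6 and Orc1 by 1.28 and 1.27. The call of Mcm6 was lost with the values as deposited, with no filter on low values and with only the compared groups in the fit. Cdt1 (ENSMUSG00000006585), the partner of Cdc6 in loading, was not called. It had 44.3 and 55.2 CPM in WT control libraries against 38.3 and 34.3 CPM in WT untreated libraries, a log2 difference of 0.45 (SE 0.22, adjusted p = 0.0974) that turned to -0.09 when totals alone set the scale.

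Of the 6 helicase activation genes 4 fell. Cdc45 (ENSMUSG00000000028), which joins the ring to form the active helicase, had 6.37 and 5.38 CPM in WT control libraries, against 30.3 and 19.6 CPM in WT untreated libraries. The groups did not overlap (log2 difference -2.04, SE 0.22, adjusted p = 2.27e-05). The GINS subunits Gins3, Gins1 and Gins4 fell by 1.51, 1.17 and 0.53 on the log2 scale. Gins2 (ENSMUSG00000031821), another subunit, was not called, with 15.5 and 12.3 CPM in WT control against 21.3 and 15.8 CPM in WT untreated libraries. Exons of Gse1 on the opposite strand cover 67.3% of its exon length, and a counting rule by strand is not stated in the sources used here. Exons of other genes on the opposite strand also cover 78.8% of Fen1, 17.4% of Ccne2, 15.1% of Rfc2, 12.7% of Rfc4, 10.8% of Orc1, 10.7% of Rfc5, 7.25% of Mcm7, 6.93% of Orc6 and smaller shares of further members, so that these values are uncertain. Pole2 shares 8.5% of its exon length with Gm49384 on the same strand, a gene with no value in the deposited table. Opposite Fen1, Gm10143 with the 78.8% held 0 to 2 deposited units in a library. Tmem258, which covers 5.37% of Fen1, held 1232 to 2053. Mcm10 (ENSMUSG00000026669), a factor needed to fire the helicase, had 31.1 and 23.5 CPM in WT control and 41.0 and 25.4 CPM in WT untreated libraries, which overlapped (adjusted p = 0.365).

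In the clamp and its loader 4 of 6 genes fell. Rfc4, Rfc1, Rfc2 and Rfc5 fell, by 1.70, 1.49, 1.33 and 0.62 on the log2 scale. Rfc4 (ENSMUSG00000022881) had 4.81 and 2.78 CPM in WT control libraries and 13.6 and 10.8 CPM in WT untreated libraries, with no overlap (SE 0.25, adjusted p = 0.000165). Rfc3 (ENSMUSG00000033970), a subunit of the same pentamer, had 13.1 and 14.7 CPM in WT control libraries within the span of the WT untreated ones at 16.9 and 10.9 CPM, a log2 difference of 0.04 (adjusted p = 0.873) that was -0.49 under totals alone. Pcna (ENSMUSG00000027342) had 245 and 270 CPM in WT control against 308 and 276 CPM in WT untreated libraries, a log2 difference of -0.18 that missed the threshold (SE 0.08, adjusted p = 0.0695). The processed pseudogene Pcna-ps2 held 11 to 44 deposited units in a library, far below Pcna itself.

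All 8 polymerase and primase genes fell in WT control cells, with a median of -2.03. Pole2 (ENSMUSG00000020974), the accessory subunit of the leading-strand polymerase epsilon, had 1.31 and 0.896 CPM in WT control against 8.08 and 5.03 CPM in WT untreated libraries (log2 difference -2.45, SE 0.32, adjusted p = 8.12e-05). The smallest fall was that of Pold2 (ENSMUSG00000020471), the accessory subunit of polymerase delta, at 7.97 and 6.30 CPM in WT control and 11.9 and 10.4 CPM in WT untreated libraries (log2 difference -0.64, SE 0.20, adjusted p = 0.0162). The catalytic subunits Pold1, Pola1 and Pole fell by 2.08, 2.06 and 2.01 on the log2 scale, and the primase subunits Prim1 and Prim2 by 2.33 and 1.56. The accessory subunit Pola2 fell by 0.87.

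All 4 genes of flap processing, ligation and single-strand binding fell. Lig1 (ENSMUSG00000056394), the ligase that seals Okazaki fragments, had 24.7 and 18.3 CPM in WT control libraries, against 70.3 and 47.6 CPM in WT untreated libraries (log2 difference -1.44, SE 0.23, adjusted p = 0.000317). Rpa2 (ENSMUSG00000028884), a subunit of the single-strand binding complex, fell least, with 17.2 and 13.2 CPM in WT control libraries against 31.1 and 24.5 CPM in WT untreated libraries (log2 difference -0.87, SE 0.20, adjusted p = 0.00313). Neither pair of groups overlapped. The flap nuclease gene Fen1 fell by 1.18 and Rpa1 by 1.34.

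In nucleotide supply, 3 of 4 genes fell. Rrm2 (ENSMUSG00000020649), the S-phase subunit of ribonucleotide reductase, showed the steepest fall of the 43, with 12.6 and 7.68 CPM in WT control libraries against 75.7 and 47.7 CPM in WT untreated libraries (log2 difference -2.60, SE 0.30, adjusted p = 3.36e-05). Tk1, thymidine kinase, fell by 2.44 and Rrm1, the large reductase subunit, by 1.61. Tyms (ENSMUSG00000025747), thymidylate synthase, had 17.9 and 10.5 CPM in WT control against 19.9 and 11.3 CPM in WT untreated libraries, with wide overlap (adjusted p = 0.736).

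The 5 regulators all fell. E2f2 (ENSMUSG00000018983), an activating E2F factor, had 5.96 and 6.42 CPM in WT control libraries against 42.7 and 33.3 CPM in WT untreated libraries (log2 difference -2.59, SE 0.15, adjusted p = 1.93e-07). Ccne1 (ENSMUSG00000002068), cyclin E1, fell least, with 9.03 and 8.15 CPM in WT control and 19.7 and 13.5 CPM in WT untreated libraries (log2 difference -0.92, SE 0.18, adjusted p = 0.00133). Uhrf1, which recruits the maintenance DNA methyltransferase to new strands, fell by 2.01, Ccne2 by 1.68 and E2f1 by 1.38. By promoter, 13 of the 15 genes with an E2F word fell (median -1.71), as did 17 of the 20 with none (median -1.31) and 7 of the 8 with no promoter matched.

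**Figure D2:**
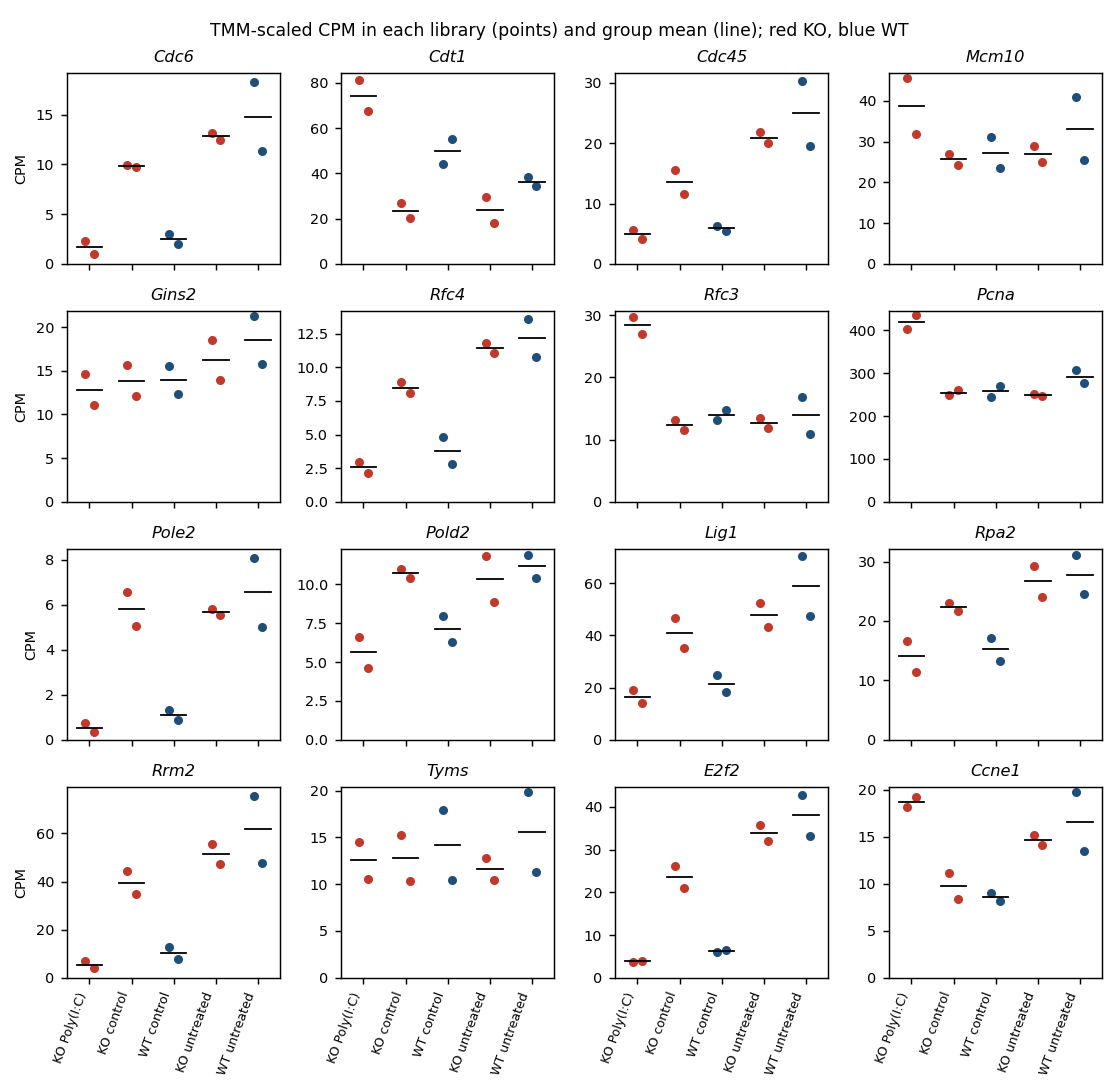
Points give TMM-scaled CPM in each library and lines the group mean for 16 genes, with groups on the x axis in red (KO) or blue (WT) and a y axis from 0 in each panel. Cdc6, Cdc45, Pole2, Rrm2 and E2f2 are low in KO Poly(I:C) and WT control, Cdt1, Rfc3 and Pcna are highest in KO Poly(I:C) on this scale (Pcna was 0.00 in KO Poly(I:C) minus KO control with totals alone), and Tyms and Gins2 overlap across groups.

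The same medium was compared in cells labelled KO. In KO control cells 5 of the 43 genes fell against KO untreated cells, none rose, and 38 were not called. Over all genes tested, 20% were called, 10.9% higher and 9.08% lower, so the share of replication genes that fell was near the background. The 5 were Pola1 (-0.71), Ccne1 (-0.60), Rfc2 (-0.55), E2f2 (-0.53) and Pola2 (-0.50). Rfc2, a clamp loader subunit, had 30.9 and 27.7 CPM in KO control libraries and 42.9 and 42.5 CPM in KO untreated libraries (SE 0.10, adjusted p = 0.00375). It alone stayed called without either KO control or either KO untreated library in turn. The count was 3 without KO control replicate 1, and 1 without KO control replicate 2 or either KO untreated replicate. The median log2 difference of the 43 genes was -0.22, against 0.004 for all genes, and the KO control libraries lay below the KO untreated ones in 24 genes and overlapped them in 18, while over all genes tested 63.2% lay apart and 31% lay below. Rrm2 illustrates the size, with 44.2 and 34.8 CPM in KO control libraries against 55.6 and 47.1 CPM in KO untreated libraries, apart but not called (log2 difference -0.38, adjusted p = 0.425). The neutrophil list was 135 to 150 CPM in KO control and 208 to 211 CPM in KO untreated libraries, the B cell list 37.3 to 42.8 CPM in KO control and 47.4 to 50.8 CPM in KO untreated libraries, and their part was not tested.

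Whether the response to the medium differed between the genotype labels was tested by the interaction, the KO difference minus the WT difference. It was called above 0 in 29 of the 43 genes and below 0 in none, against 45.7% of all genes called, 22% above and 23.7% below. A positive value means that the KO difference lay above the WT difference. The median over the 43 genes was 1.17, against 0.037 for all genes. Pole2 had the largest value (2.47, SE 0.45, adjusted p = 0.00157): it had 6.57 and 5.06 CPM in KO control and 5.79 and 5.55 CPM in KO untreated libraries, beside the WT fall given above. E2f2 had the smallest adjusted p (2.06, SE 0.21, adjusted p = 3.03e-05), with 26.1 and 21.1 CPM in KO control and 35.7 and 32.0 CPM in KO untreated libraries. By role, the interaction was called in 8 of 10 licensing genes, 2 of 6 helicase activation genes, 3 of 6 clamp and loader genes, 6 of 8 polymerase and primase genes, 3 of 4 flap, ligation and binding genes, 3 of 4 nucleotide supply genes and 4 of 5 regulators. The interaction uses the WT untreated libraries: 25 genes were called without WT untreated replicate 1 and 32 without replicate 2.

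**Figure D3:**
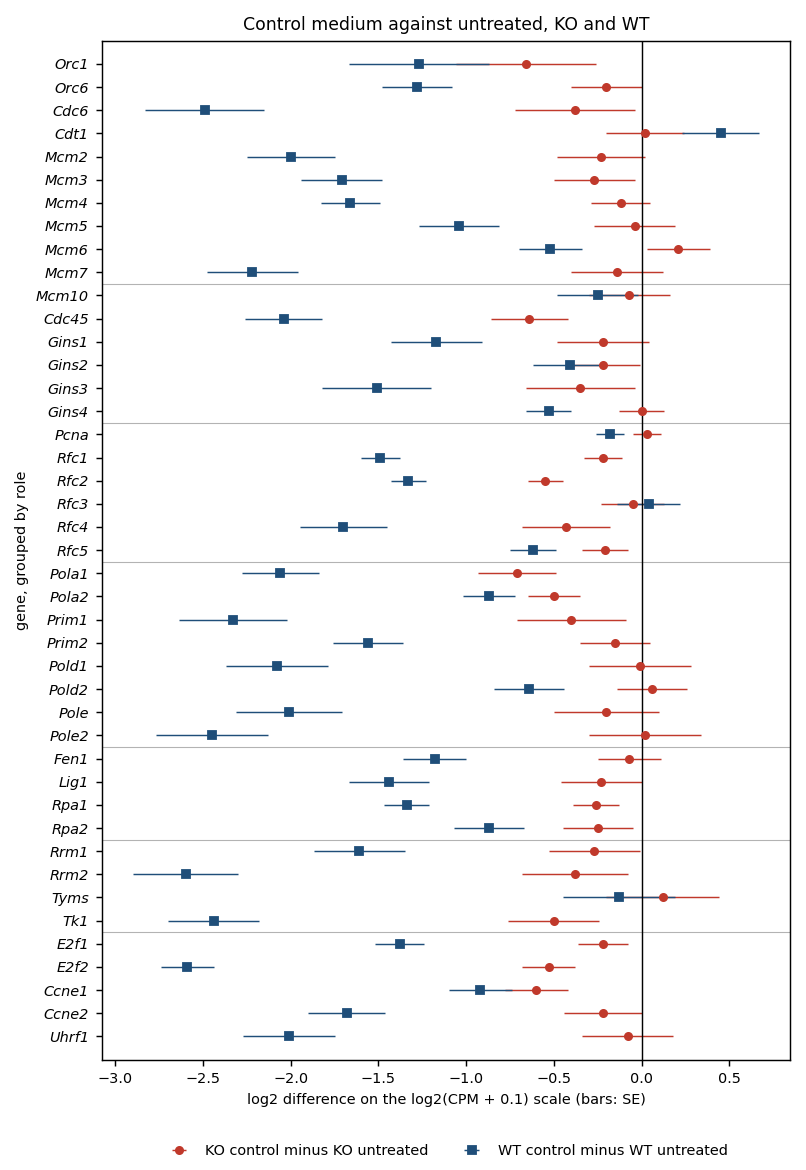
Log2 differences on the log2(CPM + 0.1) scale (x axis, bars are SE) are given for each of the 43 genes (y axis, by role), KO control minus KO untreated as red circles and WT control minus WT untreated as blue squares. Red circles lie between -0.71 and 0.21, while blue squares reach -2.60.

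Set directly against each other after the medium, KO control cells had 32 of the 43 genes higher than WT control cells, 1 lower and 10 not called. All genes tested gave 61.1% called, 30.9% higher and 30.2% lower. The 10 were Orc1, Mcm6, Mcm10, Gins2, Pcna, Rfc3, Rfc5, Pola2, Tyms and Ccne1. The median of the 43 was 1.08, against 0.032 for all genes. Pole2 differed most (log2 difference 2.31, SE 0.32, adjusted p = 0.000148), followed by Rrm2 at 1.99, Cdc6 at 1.95, E2f2 at 1.91 and Mcm7 at 1.90. Cdc6 had 9.94 and 9.76 CPM in KO control libraries and E2f2 26.1 and 21.1 CPM, both above their WT control values given earlier. The 1 gene lower was Cdt1, with 26.8 and 20.4 CPM in KO control libraries against 44.3 and 55.2 CPM in WT control libraries (log2 difference -1.08, SE 0.22, adjusted p = 0.00177), and it stayed lower, at -0.59 (adjusted p = 0.0341), with totals alone as the scale. The neutrophil list also differed here (135 to 150 CPM in KO control and 259 to 296 CPM in WT control libraries), as did the B cell list (37.3 to 42.8 CPM in KO control and 10.5 to 11.5 CPM in WT control libraries) and the stromal list (4.42 to 6.29 CPM in KO control and 12.9 to 16.2 CPM in WT control libraries), and their part in the result was not tested.

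The labels were also compared without the medium. Between KO untreated and WT untreated cells none of the 43 genes was called by limma in either direction, and 2 had an unadjusted p under 0.05. Only 0.167% of all genes were called, 0.0835% higher and 0.0835% lower. The differences ran from -0.65 for Cdt1 to 0.12 for Ccne2, with a median of -0.17, and 41 of 43 were negative. Without WT untreated replicate 1 the median was 0.08, and without WT untreated replicate 2 it was -0.46, so that its sign rests on replicate 1. Cdt1 had 29.5 and 18.0 CPM in KO untreated libraries and 38.3 and 34.3 CPM in WT untreated libraries, apart but not called (adjusted p = 0.452).

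Poly(I:C) was analysed in KO cells, and the labels do not describe its medium. In KO Poly(I:C) cells 32 of the 43 genes fell against KO control cells, 4 rose and 7 were not called, and all genes tested gave 69.4% called, 32.5% higher and 36.9% lower. The median of the 43 was -1.31, against -0.065 for all genes, and with totals alone as the scale it was -2.02, against -0.755 for all genes. Pole2 fell most, to 0.734 and 0.357 CPM in KO Poly(I:C) libraries, against 6.57 and 5.06 CPM in KO control libraries (log2 difference -3.25, SE 0.32, adjusted p = 8.90e-06). At 13 deposited units in KO Poly(I:C) replicate 2 it was the lowest value of the 43 genes, and the added 0.1 understates its change. Rrm2 had 6.82 and 4.01 CPM in KO Poly(I:C) against 44.2 and 34.8 CPM in KO control libraries (log2 difference -2.88, SE 0.30, adjusted p = 1.34e-05). E2f2 had 3.76 and 4.01 CPM in KO Poly(I:C) against 26.1 and 21.1 CPM in KO control libraries (-2.56, SE 0.15, adjusted p = 1.49e-07). Cdc6 had 2.35 and 1.04 CPM in KO Poly(I:C) against 9.94 and 9.76 CPM in KO control libraries (-2.57, SE 0.34, adjusted p = 7.20e-05). None of these groups overlapped. All 8 polymerase and primase genes and all 4 flap, ligation and binding genes fell, with medians of -1.81 and -1.19. Pola2, the smallest fall of the 8 (-0.42), lost its call with median of ratios, the values as deposited, rlog values and no filter. Among the other falls, the ring subunits Mcm7, Mcm2, Mcm3, Mcm4 and Mcm5 fell by 2.43, 1.98, 1.71, 1.61 and 1.32, Orc6 by 1.13, Cdc45 by 1.45, Gins3 by 1.61 and Gins4 by 0.40. Rfc4, Rfc1 and Rfc2 fell by 1.70, 1.21 and 0.45, Lig1 by 1.31, Pold2 by 0.93, Rpa2 by 0.69, Tk1 by 2.12 and Rrm1 by 1.33. The calls of Gins4 and Rfc2 were lost with the values as deposited. Of the regulators, Uhrf1 fell by 2.29, Ccne2 fell by 1.96 and E2f1 fell by 1.66. The summed B cell markers were 7.53 and 8.75 CPM in KO Poly(I:C) and 37.3 and 42.8 CPM in KO control libraries, and neutrophil markers 247 to 254 CPM in KO Poly(I:C) and 135 to 150 CPM in KO control libraries. The stromal sum was 7.56 to 9.72 CPM in KO Poly(I:C) and 4.42 to 6.29 CPM in KO control libraries. Their part was not tested.

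The 4 genes that rose were Cdt1, Rfc3, Ccne1 and Pcna. Cdt1 had 81.1 and 67.4 CPM in KO Poly(I:C) libraries against 26.8 and 20.4 CPM in KO control libraries (log2 difference 1.66, SE 0.22, adjusted p = 7.50e-05), and it rose also with totals alone as the scale, by 0.94 (adjusted p = 0.00258). Rfc3 had 29.7 and 27.0 CPM in KO Poly(I:C) against 13.1 and 11.5 CPM in KO control libraries (1.20, SE 0.18, adjusted p = 0.000192, and 0.49 under totals alone, adjusted p = 0.0347). For Ccne1 and Pcna the call rested on the scale. Ccne1 had 18.2 and 19.2 CPM in KO Poly(I:C) against 11.1 and 8.34 CPM in KO control libraries (0.95, SE 0.18, adjusted p = 0.000982), but 0.24 under totals alone (adjusted p = 0.278). Pcna had 404 and 435 CPM in KO Poly(I:C) against 249 and 260 CPM in KO control libraries (0.72, SE 0.08, adjusted p = 2.08e-05), but 0.00 under totals alone (adjusted p = 0.971). Under that scale the median of all genes moved to -0.76 (-0.52 in WT control against WT untreated), so that relative to the bulk of genes both stood higher. Genes not called included Mcm10, at 45.7 and 31.8 CPM in KO Poly(I:C) and 27.1 and 24.2 CPM in KO control libraries (0.57, adjusted p = 0.0503, and -0.14 under totals alone), Gins2 at 14.6 and 11.1 CPM in KO Poly(I:C) against 15.6 and 12.1 CPM in KO control libraries, and Tyms at 14.5 and 10.6 CPM in KO Poly(I:C) against 15.3 and 10.3 CPM in KO control libraries. Of the 15 genes with an E2F word 11 fell and 2 rose, and of the 20 without one 15 fell and 2 rose.

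Against KO untreated cells, which share the KO Poly(I:C) libraries with the comparison above, 33 of the 43 genes fell, 3 rose and 7 were not called, with a median of -1.53 (-2.28 with totals alone, where that of all genes was -0.773). All genes tested gave 72.1% called, 34.5% higher and 37.6% lower. The steepest were Rrm2 (-3.26), Pole2 (-3.22), E2f2 (-3.09), Cdc6 (-2.95) and Prim1 (-2.91). Cdt1 (1.68) rose here too, and so did Rfc3 (1.16) and Pcna (0.75), whose calls were lost with totals alone as the scale (0.41 and 0.00, adjusted p = 0.0709 and 0.983). Ccne1, which was 0.35 (adjusted p = 0.113), was -0.40 under totals alone. The B cell sum was 7.53 to 8.75 CPM in KO Poly(I:C) and 47.4 to 50.8 CPM in KO untreated libraries, the neutrophil sum 247 to 254 CPM in KO Poly(I:C) and 208 to 211 CPM in KO untreated libraries, and the stromal sum 7.56 to 9.72 CPM in KO Poly(I:C) and 4.02 to 4.15 CPM in KO untreated libraries. Their part was not tested.

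WT control minus WT untreated and KO Poly(I:C) minus KO control share no library, and their values can be set side by side. Pearson's r across the 43 genes was 0.928, and it was 0.88 across all 13171 genes tested, a description over genes that are not independent replicates. The 32 genes that fell in KO Poly(I:C) cells also fell in WT control cells, 100% of the 32 and 86.5% of the 37. Over all genes tested, 36.9% were lower in KO Poly(I:C) against KO control and 32.8% in WT control against WT untreated cells. The share of all genes lower in both was not counted, so the overlap is not shown to be particular to the 43. The 5 of the 43 that fell in WT control cells and were not called lower in KO Poly(I:C) cells were Orc1, Mcm6, Gins1, Rfc5 and Ccne1, with KO Poly(I:C) minus KO control values of -0.69, -0.24, -0.20, 0.09 and 0.95. The difference between the 2 responses was not tested.

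**Figure D4:**
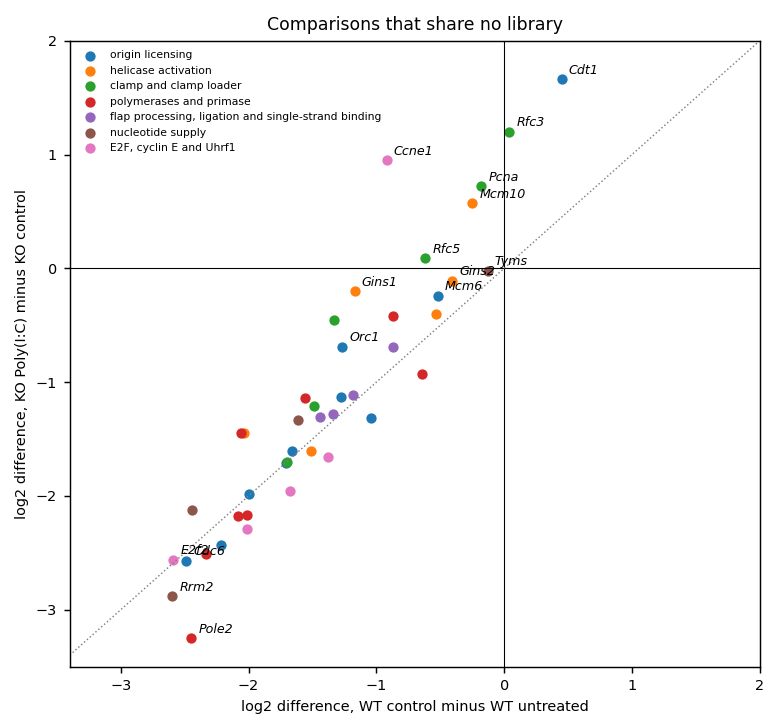
Each point is 1 of the 43 genes, coloured by role, with the log2 difference of WT control minus WT untreated on the x axis and of KO Poly(I:C) minus KO control on the y axis. Most points lie near the dotted line of equal values, down to Pole2 and Rrm2, while Cdt1, Rfc3, Pcna, Mcm10, Ccne1 and Rfc5 lie above both the line and 0 on the y axis on this TMM scale (with totals alone, y was 0.00 for Pcna, -0.14 for Mcm10 and below 0 for Rfc5).

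KO Poly(I:C) cells were also set against WT control cells, a pair in which genotype label and treatment differ together and cannot be told apart. Here 38 of the 43 genes were not called, 3 were higher (Ccne1, Rfc3 and Pcna, at 1.11, 1.02 and 0.70) and 2 lower (E2f2 and E2f1, at -0.66 and -0.58). All genes tested gave 23.7% called, 11.9% higher and 11.9% lower. These 5 kept their calls with totals alone as the scale, but E2f1 lost its call with only the compared groups in the fit. Ccne1 had 18.2 and 19.2 CPM in KO Poly(I:C) libraries against 9.03 and 8.15 CPM in WT control libraries (SE 0.18, adjusted p = 0.00280). The split was 3 higher and 11 lower with totals alone as the scale, where 5.8% of all genes were higher and 32.2% lower. With a replicate block more of the 43 genes were called in both directions, as given below. Most of the 43 genes ran higher in replicate 1 within every group, so the number called here depends on whether replicate number is fitted. Nothing in the labels says that replicate numbers mark a shared source. The count of lower genes was 4 without KO Poly(I:C) replicate 1, 1 without KO Poly(I:C) replicate 2 or WT control replicate 1, and 6 without WT control replicate 2. Here the stromal sum was 7.56 to 9.72 CPM in KO Poly(I:C) and 12.9 to 16.2 CPM in WT control libraries, and its part was not tested.

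Further genes of the same pathway were described from lists outside the 43. Their counts stand beside shares over all genes tested of 32.8% lower and 33.1% higher in WT control against WT untreated cells, 36.9% lower and 32.5% higher in KO Poly(I:C) against KO control cells, and 9.08% lower and 10.9% higher in KO control against KO untreated cells. With totals alone the first 2 comparisons gave 58.4% lower and 17.2% higher, and 67.4% lower and 15.8% higher. Among 16 other origin and helicase genes, 12 fell and 3 rose in WT control against WT untreated cells, and 11 fell and 3 rose in KO Poly(I:C) against KO control cells, with medians of -1.29 and -0.95. Orc4, Mcmbp and Mcm9 rose in both on the TMM scale, while with totals alone 2 (Mcmbp and Mcm9) rose in WT control cells and 1 (Mcmbp) in KO Poly(I:C) cells. Recql4, a helicase needed for initiation, had 0.646 and 0.302 CPM in KO Poly(I:C), 3.93 and 2.72 CPM in KO control, 0.643 and 0.597 CPM in WT control, 5.53 and 3.66 CPM in KO untreated and 6.64 and 4.63 CPM in WT untreated libraries. Ticrr, which helps load Cdc45, fell by 2.59 in WT control and by 2.26 in KO Poly(I:C) cells. Of 23 other fork and polymerase genes, 17 fell and 2 rose in WT control cells, and 16 fell and 4 rose in KO Poly(I:C) cells against KO control, with medians of -1.30 and -0.95. Pole4 and Chtf8 rose in both, and Pold3 and Timeless in KO Poly(I:C) cells. With totals alone 1 rose in each, Pole4 in WT control and Timeless in KO Poly(I:C) cells, where Pole4 was then lower (-0.38, against 0.33 on the TMM scale). Clspn, the checkpoint mediator claspin that travels with the fork, fell most in both (-3.14 and -3.45), with 2.35 and 1.68 CPM in KO Poly(I:C) libraries against 25.5 and 20.2 CPM in KO control libraries. In KO control against KO untreated cells none of the 16 origin and helicase genes was called, and 2 of the 23 were higher and 2 lower, near the shares of all genes. The largest differences there were those of Pole4, an accessory subunit of polymerase epsilon (0.69), and Chaf1b, a chromatin assembly subunit (-0.68).

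Of 9 other nucleotide supply genes, 4 fell and 2 rose in WT control against WT untreated cells, and 6 fell and 2 rose in KO Poly(I:C) against KO control cells, with medians of -0.36 and -0.80. In KO control against KO untreated cells 2 of the 9 rose and 1 fell. Dut, which removes dUTP, fell in WT control cells (-2.49). Samhd1, which breaks down deoxynucleotides, had 3086 and 3145 CPM in KO Poly(I:C), 499 and 559 CPM in KO control, 1782 and 2095 CPM in WT control, 348 and 397 CPM in KO untreated and 405 and 399 CPM in WT untreated libraries. It rose by 2.26 in WT control cells, by 2.56 in KO Poly(I:C) against KO control cells, and by 0.51 (adjusted p = 0.00677) in KO control against KO untreated cells. Dck, the deoxycytidine kinase of the salvage route, had 411 and 384 CPM in KO Poly(I:C) libraries against 57.8 and 58.5 CPM in KO control libraries, and 318 and 303 CPM in WT control against 83.3 and 89.5 CPM in WT untreated libraries. Both were rises, also with totals alone as the scale (2.05 in KO Poly(I:C) and 1.31 in WT control cells). Tk1, the thymidine kinase of that route, fell, with 7.81 and 5.44 CPM in KO Poly(I:C) against 33.8 and 24.2 CPM in KO control libraries.

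Among 24 other G1/S regulators, 12 fell and 5 rose in WT control against WT untreated cells, and 13 fell and 10 rose in KO Poly(I:C) against KO control cells, with medians of -0.34 and -0.59. With totals alone 16 fell and 3 rose in WT control cells, and 16 fell and 6 rose in KO Poly(I:C) cells. That scale gave 58.4% of all genes lower and 17.2% higher in WT control cells. In KO Poly(I:C) cells it gave 67.4% lower and 15.8% higher, so these falls were near the shares of all genes. In KO control against KO untreated cells 5 of the 24 fell and none rose, where 9.08% of all genes tested were lower. They were Ccnd2, Ccnd3, Skp2, Cdkn1b and Cdkn2d. The 5 that rose in WT control cells were Ccnd2, Cdkn1a and Cdk6, which rose also with totals alone, and E2f4 and E2f3. Ccnd2, a D-type cyclin, had 190 and 227 CPM in KO Poly(I:C) libraries against 7.36 and 7.92 CPM in KO control libraries (log2 difference 4.75, SE 0.12, adjusted p = 1.15e-09). In KO control cells it was lower than the 19.1 and 20.9 CPM of KO untreated libraries (-1.38, adjusted p = 0.000117). Tfdp2, a dimerization partner of E2F factors, had 1.35 and 1.40 CPM in KO Poly(I:C), 15.9 and 15.4 CPM in KO control, 1.93 and 1.58 CPM in WT control, 13.8 and 13.1 CPM in KO untreated and 13.9 and 10.5 CPM in WT untreated libraries. Cdkn2c, an inhibitor of the kinases that D-type cyclins activate, fell by 2.67 in WT control cells. All 25 of 25 mitosis genes fell in WT control against WT untreated cells, and 22 fell and 1 rose in KO Poly(I:C) against KO control cells, with none called by limma in KO control against KO untreated cells, where 0 of the 25 had an unadjusted p under 0.05. The medians were -2.07 in WT control and -1.94 in KO Poly(I:C) cells. The 1 that rose, Tpx2, a spindle assembly factor, was not called higher with totals alone. Bub1b, a spindle checkpoint kinase, had 6.37 and 4.92 CPM in KO Poly(I:C) and 54.9 and 37.4 CPM in KO control libraries, and 9.20 and 5.11 CPM in WT control against 74.1 and 43.6 CPM in WT untreated libraries.

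The largest called differences of each list in the remaining comparisons follow, 2 per list. In KO control against WT control cells they were Recql4 (2.23) and Ticrr (1.97), Clspn (2.56) and Dscc1, a clamp loader partner (1.81), Dck (-2.41) and Dut (2.09), Ccnd2 (-4.14) and Tfdp2 (3.09), and Cenpf, a kinetochore protein, and Bub1b (both 2.71). The interaction gave Recql4 (2.52) and Ticrr (2.12), Clspn (2.76) and Chtf18, another clamp loader subunit (1.97), Dut (2.35) and Dck (-2.22), Ccnd2 (-3.44) and Tfdp2 (2.94), and Cenpf (2.82) and Bub1b (2.75).

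In KO Poly(I:C) against KO untreated cells the largest were Recql4 (-3.07) and Ticrr (-2.72), Clspn (-3.83) and Atad5, which unloads the clamp (-2.50), Samhd1 (3.07) and Dck (2.40), Ccnd2 (3.37) and Tfdp2 (-3.20), and Bub1b (-3.27) and Espl1, the protease separase (-3.10). In KO Poly(I:C) against WT control cells they were Mcmbp (0.68) and Wdhd1 (0.62), Clspn (-0.89) and Timeless (0.64), Shmt1 (-1.13) and Samhd1 (0.69), Rbl1 (0.97) and Ccnd1 (0.76), and Espl1 (-1.16) and Tpx2 (0.83). Of these, Wdhd1, Timeless and Tpx2 were not called with totals alone as the scale (0.39, 0.41 and 0.60). Next after the genes already described stood Hells, a chromatin remodeller (-2.21), and Cenpf (-2.95) in WT control against WT untreated cells. In KO Poly(I:C) against KO control cells they were Dna2, a flap nuclease (-2.28), and Espl1 (-2.92), and in KO control against KO untreated cells Rrm2b, a reductase subunit (0.48), and Cdkn2d, an inhibitor of D-type cyclin kinases (-0.65).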

How the data were processed

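Labels name the group and replicate in each sample title. Tools credited in the submitters' processing notes are STAR 2.4.0d, RSEM 1.2.12, Trim Galore 0.2.8 and DESeq2, without roles. The build and the counting strand behind the table are not given in the sources used here. Deposited by the authors were a whole-number signal per gene and library, which skips values in a way that reads multiplied by a factor and rounded would, and deposited rlog values, which are on a log2 scale. The signal was therefore not treated as counts, no count model was run, and depth in reads is unknown. Of 45318 deposited identifiers, 44585 matched a symbol in GENCODE M21 (GRCm38).

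Signal was divided by library total and a TMM factor (30% of M and 5% of A values trimmed) to CPM. The 13171 genes that reached 10 units in 2 or more libraries were tested with limma 3.58.1 in R 4.3.3, allowing a trend of variance, after log2(CPM + 0.1), fitting 1 coefficient per group over all 10 libraries (5 residual degrees of freedom), and Benjamini-Hochberg adjustment over all genes at 0.05. Fold changes are on that scale, which understates changes of low genes. The script was tested on simulated data. Alternatives were other scalings, pseudocount 1, no filter, a filter at 100, the rlog values, only the compared groups, a replicate block and leaving out each library. Values in every library are given for the genes with the largest and smallest log2 difference of each role in WT control minus WT untreated and for each gene not called there, and for other pathway lists the log2 difference of the 2 largest called differences per comparison, with levels for some of these chosen after their values were seen. The genes, lists and tests were chosen with earlier results of these data known. Promoter sequences are from RefSeq (GRCm38.p6).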

Additional observations from a re-analysis of the deposited data

Results flagged for a closer look

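The response to the control medium differed between the genotype labels in 29 of the 43 genes, by the interaction term of limma (KO control minus KO untreated, minus WT control minus WT untreated, Benjamini-Hochberg adjusted p under 0.05 over all genes). Every one of the 29 was positive, the KO difference lying above the WT difference. Among licensing genes the log2 interaction was 2.11 for Cdc6, 2.09 for Mcm7, 1.77 for Mcm2, 1.54 for Mcm4, 1.44 for Mcm3, 1.08 for Orc6, 1.01 for Mcm5 and 0.73 for Mcm6. Helicase activation gave 1.40 for Cdc45 and 0.53 for Gins4, and the clamp loader 1.27 for Rfc4, 1.26 for Rfc1 and 0.79 for Rfc2. Polymerase and primase genes gave 2.47 for Pole2, 2.07 for Pold1, 1.93 for Prim1, 1.81 for Pole, 1.41 for Prim2 and 1.35 for Pola1. Lig1 gave 1.21, Fen1 1.11 and Rpa1 1.08. Nucleotide supply gave 2.22 for Rrm2, 1.95 for Tk1 and 1.34 for Rrm1. Regulators gave 2.06 for E2f2, 1.94 for Uhrf1, 1.46 for Ccne2 and 1.16 for E2f1. The calls of Mcm5, Mcm6 and Gins4 were lost with the values as deposited and with no filter on low values. The count ranged from 24 to 32 when each library was left out in turn.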

How the results depend on the processing

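The main counts of calls moved little with most settings: lower calls in WT control against WT untreated cells stayed between 34 and 41, and in KO Poly(I:C) against KO control cells between 29 and 37. Counts that moved by over 1.5 times were small ones. With the values as deposited, 1 gene was higher in WT control against WT untreated, 3 were lower in KO control against KO untreated, and 5 were higher in KO Poly(I:C) against KO untreated cells. Under totals alone 2 were higher in KO Poly(I:C) against KO control, 1 against KO untreated, and 11 lower against WT control. With median of ratios and with rlog values 5 were higher in KO Poly(I:C) against WT control. With no filter 1 was lower in KO control against KO untreated. With only the groups compared the counts were 1 higher (WT control against WT untreated), 3 lower (KO control against KO untreated), 5 higher (KO Poly(I:C) against KO untreated) and 1 lower (KO Poly(I:C) against WT control). Leaving out each library gave 1 to 3 lower in KO control against KO untreated, 1 to 6 lower in KO Poly(I:C) against WT control, and 0 to 1 below 0 in the interaction.

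Replicate numbers are shared between groups but nothing says that they mark a shared source. Same-numbered deviations correlated at 0.171 to 0.315 within a genotype label and at 0.0128 to 0.111 across labels. With the replicate block 8 genes were higher and 15 lower in KO Poly(I:C) against WT control, and the interaction was called in 35. The shares of all genes with the block are not given here, so these counts are not shown to be particular to the replication genes.

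Of 201 gene results, 178 kept direction and side of the threshold under totals alone, 178 as deposited, 195 with median of ratios, 195 with rlog values, 189 with no filter, 200 with pseudocount 1 and 201 with the stricter filter. Some signs turned, and the cause was not tested. In WT control minus WT untreated, Cdt1 was -0.09 and Rfc3 -0.49 under totals alone, Tyms 0.02 as deposited, and leaving out 1 library gave Rfc3 from -0.27 to 0.35, Tyms from -0.53 to 0.27 and Mcm10 from -0.60 to 0.09. In KO Poly(I:C) minus KO control, Mcm10 was -0.14 and Rfc5 -0.62 under totals alone, Gins2 0.10 and Tyms 0.19 as deposited, and Tyms 0.06 with median of ratios and with rlog values. Leaving out 1 library gave Gins1 from -0.43 to 0.03, Gins2 from -0.30 to 0.09 and Tyms from -0.30 to 0.27. In KO Poly(I:C) minus KO untreated, Mcm10 was -0.25, Pcna 0.00, Tyms -0.64 and Ccne1 -0.40 under totals alone, Mcm6 0.16 and Rfc5 0.08 as deposited, and Mcm6 0.03 with median of ratios and with rlog values. Leaving out 1 library gave Mcm6 from -0.18 to 0.11 and Tyms from -0.12 to 0.32. With 2 libraries per group, a difference that missed the threshold is not shown to be absent.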
